A study of Sus scrofa with 43 samples.

Results

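S100G, VDR and CYP24A1 stand at 3 points of the route by which vitamin D controls calcium uptake in the small intestine. The genes were taken by their pig RefSeq transcripts from the scan files of a one-color Agilent porcine array, and the rule that picks their spots uses no measured value. They make up 3 of the 35884 transcript accessions on the array and 5 of its 43803 gene spots: VDR (NM_001097414) has 1 probe, S100G (NM_214140) has 2 and CYP24A1 (NM_214075) has 2.

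Active vitamin D binds the vitamin D receptor, VDR, which pairs with a retinoid X receptor on DNA and switches on target genes in the absorptive cells of the gut. S100G, also called calbindin-D9k, is one of these targets and carries calcium through the cell from the brush border to the pump at the base. CYP24A1 is the 24-hydroxylase that breaks active vitamin D down, and it is a classical target of the receptor, so it limits its own inducer.

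The arrays measured RNA of jejunal scrapings from male piglets of Hypor sows. Sows of the amoxicillin group received 15 mg amoxicillin per kg body weight each day over the last week before farrowing, and control sows received the same feed without it. The piglets themselves were not dosed. Piglets were sampled at 5 ages. On day 1 there were 6 control and 4 amoxicillin arrays, and the same numbers on day 7. At weaning there were 3 control and 4 amoxicillin arrays, at 4 d postweaning 5 and 4, and at 28 d postweaning 3 and 4. Each array held RNA of 1 piglet, and the labels do not tie a piglet to its sow or to 1 of the 3 batches in which the sows were run.

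The number of arrays limits the precision of every value. Between 15937 and 29827 gene spots per array were well above background by the scanner's own call. Controls ran from 15937 to 29827 with a median of 28182, and amoxicillin arrays from 16150 to 26290 with a median of 21316.5. The part of this in the treatment differences was not tested. The names of the scan records give each array a scanner slide position, and the 6 positions are called slides here. Whether each position is a single physical slide was not checked. Control arrays were on slides 1 to 3 and amoxicillin arrays on slides 4 to 6, with the ages following each other along the slides. Treatment and slide therefore cannot be told apart, and age and slide only in part, through the ages that shared a slide. Of 15 listed enterocyte genes 8 were on the array with a usable name, and all 8 were well above background on all 43 arrays. On 6 arrays the summed level of FABP6 and SLC10A2, the ileal bile acid binding protein and the ileal bile acid uptake carrier, lay at 15.97 to 16.21 on the log2 scale, above the highest of the other 37 arrays at 14.68. These were control piglets 7 (weaning), 10 (4 d postweaning) and 13 (28 d postweaning) and amoxicillin piglets 8 (weaning), 10 (4 d postweaning) and 40 (28 d postweaning). FABP6 and SLC10A2 were the only 2 of 5 listed ileal genes with a named probe.

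The 5 probes fell into 2 classes. Both S100G probes and 1 CYP24A1 probe were at the ceiling of the scanner on nearly all arrays, while the VDR probe and the other CYP24A1 probe lay far below it. S100G was at the ceiling on 41 of 43 arrays with both A_72_P701142 and A_72_P088751, at median spot intensities of 65528 to 65535. The CYP24A1 probe A_72_P763826 was there on all 43. Such spots were rare: 213 gene spots (0.486%) were saturated on 41 or more arrays, 111 (0.253%) on all 43, and 42578 (97.2%) on none. VDR, by contrast, ran from 84 to 1159 on the same linear scale before normalization, and the CYP24A1 probe A_72_P088422 from 142 to 2779.5. The 2 CYP24A1 probes are assigned to 1 transcript and differed in intensity on each array, and the files do not tell which of them measures the transcript. The CYP24A1 values given below are therefore those of probe A_72_P088422 unless the transcript is named. Intensities of different probes also depend on the probe itself and were not used to rank the genes.

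**Figure D1:**
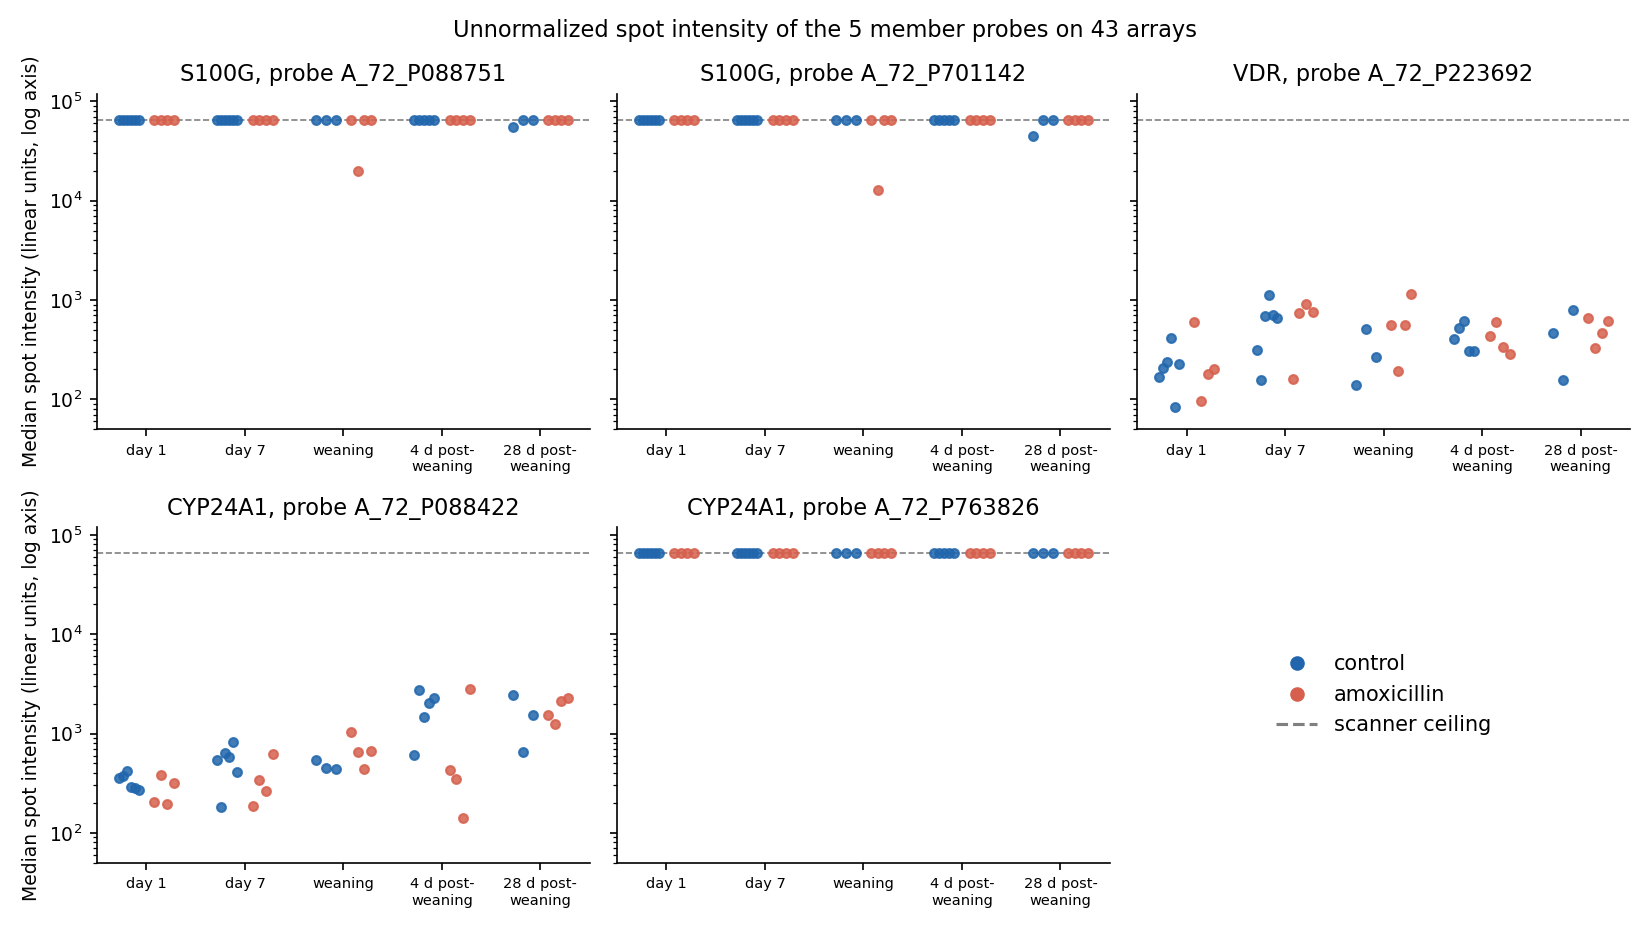
Median spot intensity before normalization (linear units on a log axis) of the 5 probes on 43 arrays, by age, with control arrays in blue and amoxicillin arrays in red and the scanner ceiling dashed. Both S100G probes and CYP24A1 probe A_72_P763826 lie on the ceiling except for 2 piglets in S100G, whereas VDR spans 84 to 1159 and CYP24A1 probe A_72_P088422 spans 142 to 2779.5.

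S100G was thus bright in the jejunum of piglets of both groups from day 1 to 28 d postweaning. Every one of the 10 groups held arrays at the ceiling, so the arrays give a lower bound of its level and no course over age and no difference between treatments. Fitted folds of S100G are not given for this reason. Just 2 piglets had S100G spots below the ceiling. Amoxicillin piglet 8 at weaning had 12718 (A_72_P701142) and 20130 (A_72_P088751). Control piglet 13 at 28 d postweaning had 44855 and 54795.5. Both probes ordered these 2 piglets the same way.

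After normalization, the other 3 amoxicillin piglets at weaning were 3.32-fold (A_72_P701142) and 2.07-fold (A_72_P088751) brighter than piglet 8. The other 2 control piglets at 28 d postweaning were 2.16-fold and 1.81-fold brighter than piglet 13. Each fold sets the mean of saturated spots, taken at their normalized ceiling value, against the measured spot. Quantile normalization gives saturated spots values that differ between arrays, so these folds are not strict lower bounds.

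Both piglets were among the 6 with high ileal genes, where 2 of 6 arrays had S100G below the ceiling, against 0 of the other 37. In piglet 8 the 8 enterocyte genes summed to 17.24 on the log2 scale, below the 18.16 to 18.72 of the 37 arrays with lower ileal genes, and the 3 named B and plasma cell genes summed to 15.37, above their 6.38 to 11.10. Piglet 13 had an enterocyte sum of 18.54 and a B and plasma cell sum of 8.86, both within those ranges. The part of these markers in the S100G values was not tested. In scrapings, fewer cells of a type and less RNA per cell cannot be told apart.

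**Figure D2:**
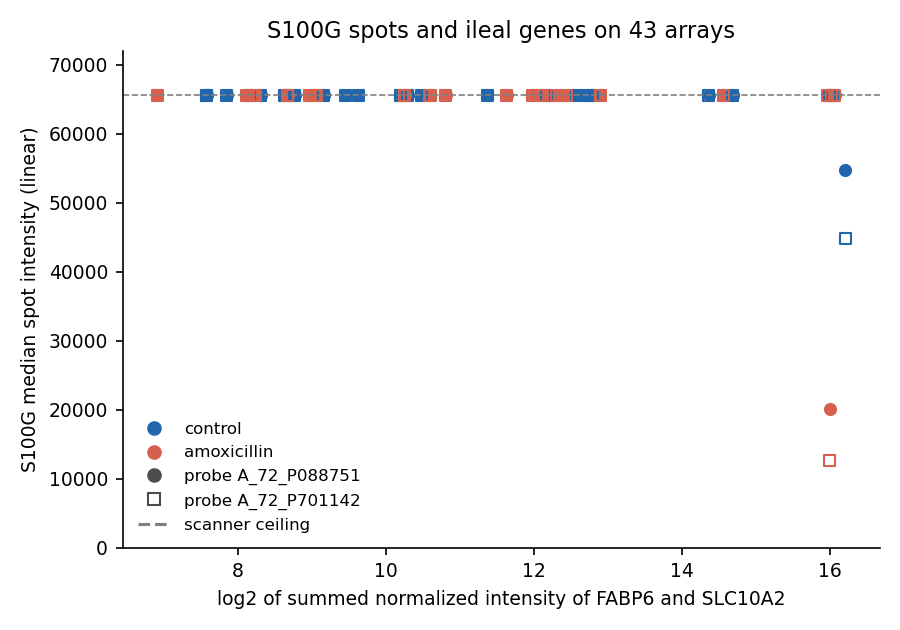
Median spot intensity of the 2 S100G probes (linear) against the log2 of the summed normalized intensity of FABP6 and SLC10A2 on 43 arrays, with probes as filled circles and open squares and treatments by color. The 2 arrays below the dashed ceiling both have a summed ileal level above 15, as do 4 arrays at the ceiling.

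VDR was well above background on 41 of 43 arrays. The exceptions were control piglet 34 at 28 d postweaning, with a median intensity of 158, and amoxicillin piglet 17 on day 1, with 97. Its mean level was lowest on day 1 in both groups and did not differ by treatment at any age beyond the test's threshold. Levels below are normalized log2 intensities of the 1 VDR probe. Some were under 7.68, the threshold of the filter on dim genes, and the highest dark spot was at 6.98. On day 1 these were control values of 6.28, 7.33 and 7.55 and amoxicillin values of 6.30 and 7.55. Later they were control piglets 7 at weaning (7.00) and 34 at 28 d postweaning (7.23). Amoxicillin piglets 8 at weaning (7.54) and 34 at 4 d postweaning (6.96) were also under it.

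On day 1 the 6 control piglets ran from 6.28 through a median of 7.64 to 9.0, and the 4 amoxicillin piglets had 6.30, 7.55, 7.91 and 8.68. On day 7 the 6 controls ran from 7.94 through 9.03 to 9.71, and the amoxicillin piglets had 8.03, 9.14, 9.29 and 9.76. The 2 ages overlapped within each group, with the lowest day 7 piglet of each group below the highest day 1 piglet. The means on day 1 and day 7 were 7.63 ± 0.88 (SD, n = 6) and 8.93 ± 0.64 (SD, n = 6) in controls and 7.61 ± 1.00 (SD, n = 4) and 9.06 ± 0.73 (SD, n = 4) in the amoxicillin group. The steps of 1.30 (SE 0.49) and 1.45 (SE 0.60) did not pass, with limma adjusted p of 0.247 and 0.42.

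At weaning the groups stood farthest apart. Control piglets had 7.00, 8.59 and 8.98, and amoxicillin piglets had 7.54, 9.84, 9.95 and 10.63. All amoxicillin piglets but 1 were above all controls, and the lowest piglet of each group, control 7 and amoxicillin 8, was the one with high ileal genes. The mean difference was 1.30 (SE 0.65, 95% interval -0.0044 to 2.61) with a limma adjusted p of 0.227, and the exact two-sided permutation test over 35 splits gave p = 0.286. Without amoxicillin piglet 8 the difference was 1.95 with a limma adjusted p of 0.036, past the threshold, and without all 6 arrays with high ileal genes it was 1.36 with an adjusted p of 0.243.

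After weaning the piglets of both groups spread around the same level. At 4 d postweaning controls had 7.79, 7.80, 8.15, 8.25 and 9.19, and amoxicillin piglets had 6.96, 8.99, 9.31 and 9.49. The 6.96 was piglet 34, the 1 amoxicillin array of this age on slide 6, which stood 2.30 below the mean of the other 3 on slide 5 (-2.30). Without it the treatment difference went from 0.45 to 1.03, with an adjusted p of 0.418. At 28 d postweaning controls had 7.23, 8.20 and 9.23, and amoxicillin piglets had 8.05, 8.46, 8.47 and 8.62. The amoxicillin piglets were closest together at this last age, at 8.40 ± 0.24 (SD, n = 4), and lay within the range of the 3 controls. In the order of the 10 group means, from amoxicillin at weaning (9.49) to amoxicillin on day 1 (7.61), no group differed from the next by more than the larger of their SDs.

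**Figure D3:**
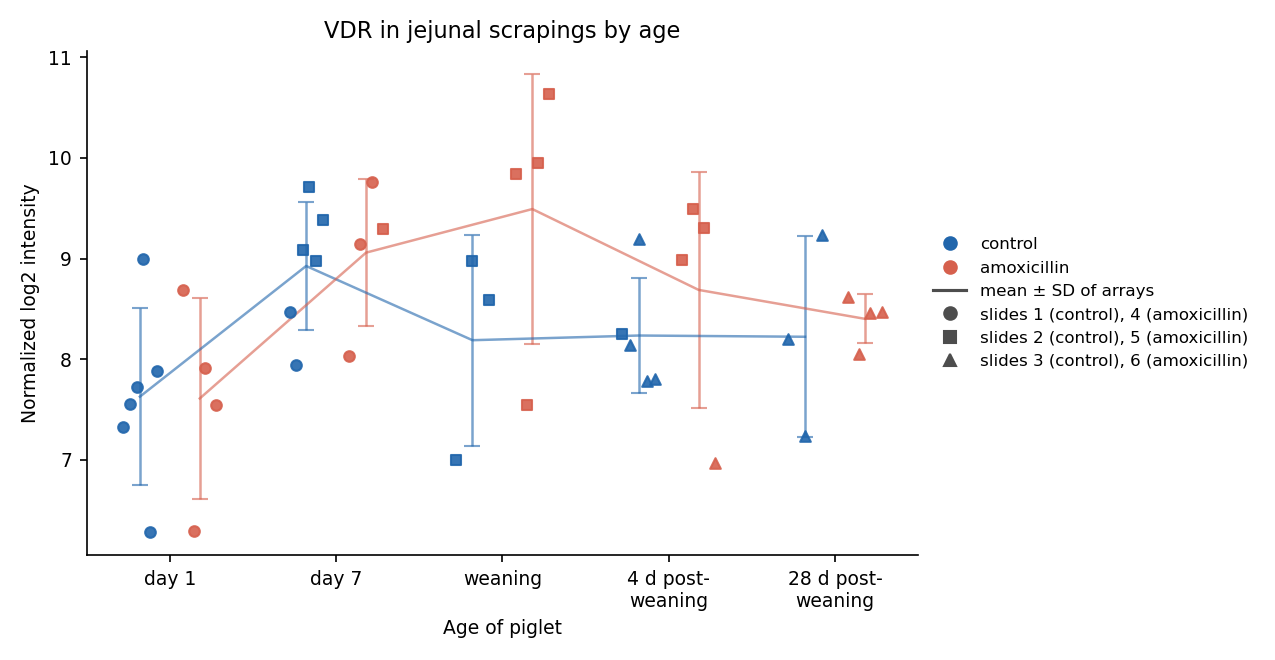
Normalized log2 intensity of VDR by age, 1 point per array, with control in blue and amoxicillin in red, bars for mean ± SD and marker shapes for slides. Means are lowest on day 1 (7.63 and 7.61), and 3 of 4 amoxicillin piglets at weaning lie above all 3 controls.

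Over the 5 ages, the moderated F-test of VDR gave an adjusted p of 0.28 in controls and 0.0732 in the amoxicillin group. VDR was thus called in neither, while 30.5% of all 12771 genes tested were called between ages in controls and 47.0% in the amoxicillin group. The amoxicillin call depended on single arrays. Leaving out piglet 8 (weaning), 34 (4 d postweaning), 2 (day 1) or 4 (day 7) gave 0.0085, 0.0306, 0.0387 and 0.0471. Leaving out the 6 arrays with high ileal genes gave 0.0107.

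Without slide in the fit, CYP24A1 was called between ages in both groups on probe A_72_P088422, the one below the ceiling. Its means were highest at 28 d postweaning (10.34 ± 0.31, SD, n = 3, in controls and 10.61 ± 0.41, SD, n = 4, in the amoxicillin group). All 28 d arrays were on slides 3 and 6, and the control call was lost with slide as a fixed block in the fit. The transcript's value in the fit across all genes was the mean over both probes. As the other probe stayed at the ceiling, differences there are smaller than on the unsaturated probe, whose normalized log2 intensities are given below. On day 1 controls ran from 8.26 through 8.51 to 8.63, and amoxicillin piglets had 7.10, 8.09, 8.36 and 9.0. On day 7 controls ran from 8.30 through 8.90 to 9.31, and amoxicillin piglets had 8.01, 8.10, 8.38 and 9.0. No piglet of day 1 or day 7 was above 9.31, and the 2 groups overlapped at both ages.

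At weaning controls had 8.81, 8.91 and 9.38, and amoxicillin piglets had 9.62, 9.75, 9.83 and 10.72. The groups did not overlap at this age, which held for 12.6% of the 12475 genes measured on all 43 arrays. The difference of 0.94 (SE 0.45, 95% interval 0.03 to 1.86) had a limma adjusted p of 0.204. The exact permutation test gave p = 0.0286, the smallest that 35 splits allow, and 0.286 after adjustment over the 10 exact tests of VDR and this probe.

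At 4 d postweaning the order of the means was turned. Controls had 8.84, 10.42, 10.56, 10.66 and 10.85, and amoxicillin piglets had 7.81, 8.73, 8.98 and 10.77. The 3 lower amoxicillin values lay within the range of day 1 and day 7. Each group held 1 piglet apart from its others: control piglet 10, with 8.84, and amoxicillin piglet 34, with 10.77. The difference of -1.19 (SE 0.40, 95% interval -1.99 to -0.38) had a limma adjusted p of 0.108. Without amoxicillin piglet 34 it was -1.75 with an adjusted p of 0.00244, and without control piglet 10 it was -1.54 with 0.0107, both past the thresholds, as was -1.51 with 0.0352 without the 6 arrays with high ileal genes. At 28 d postweaning controls had 10.08, 10.26 and 10.69, and amoxicillin piglets had 10.12, 10.44, 10.87 and 11.02, so the groups overlapped.

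The 2 piglets that stood apart at 4 d postweaning were also those with another slide position. Control piglet 10 was on slide 2 with the weaning controls, and the other 4 were on slide 3 with the 28 d controls. Amoxicillin piglet 34 was on slide 6 with the 28 d amoxicillin piglets, and the other 3 were on slide 5. All 12 arrays of slides 3 and 6 lay at 10.08 to 11.02 with a median of 10.61, and the 31 arrays of the other slides lay at 7.10 to 10.72 with a median of 8.73. The 2 ranges overlapped through amoxicillin piglet 7 at weaning, with 10.72 on slide 5. Within 4 d postweaning the probe differed between the 2 slides by 1.78 in controls and 2.26 in the amoxicillin group. A difference at least as large in size was seen for 3.62% and 3.18% of genes. These shares are of transcript values, averaged over probes where there are several. Averaging can make differences smaller, so the shares are not like for like with a single probe. Of those 12475 genes, 863 (6.92%) had a mean on slides 3 and 6 that was higher by at least 1 on the log2 scale than on the other slides. Control piglet 10 was also 1 of the 6 with high ileal genes, and amoxicillin piglet 34 was not.

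**Figure D4:**
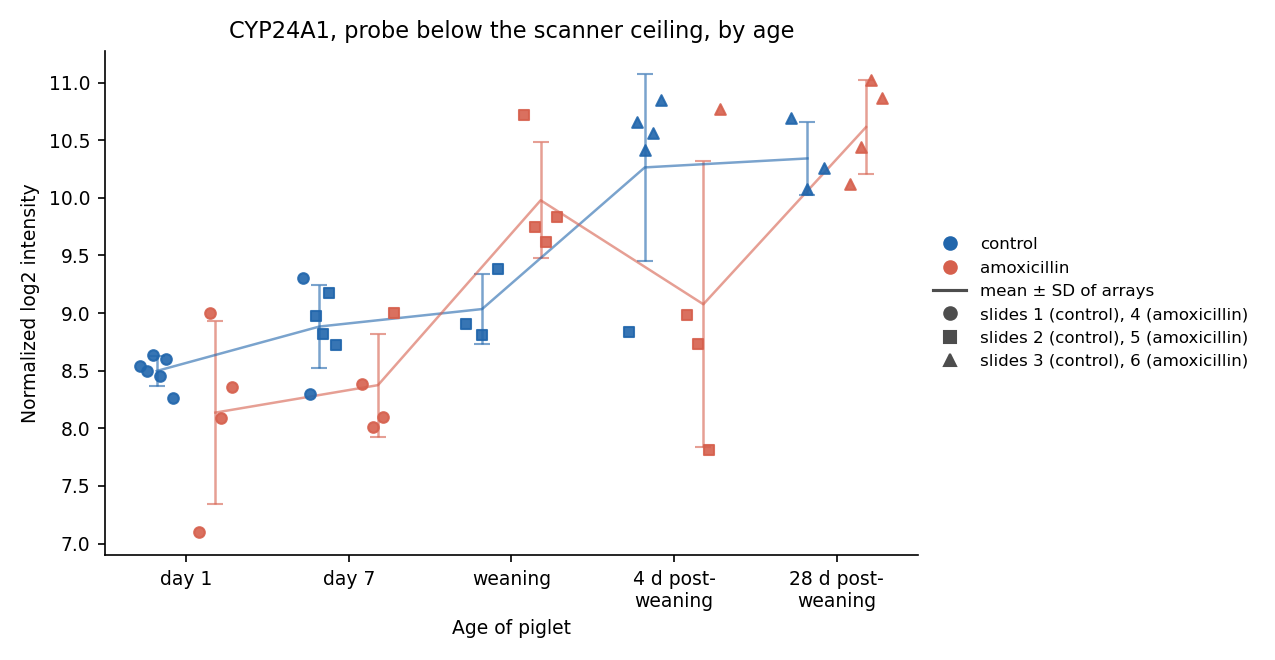
Normalized log2 intensity of CYP24A1 probe A_72_P088422 by age, 1 point per array, with control in blue and amoxicillin in red, bars for mean ± SD and marker shapes for slides. All 12 triangles (slides 3 and 6) lie at 10.08 or above, including 1 amoxicillin piglet at 4 d postweaning, while the control piglet from slide 2 at that age lies at 8.84.

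Between ages, CYP24A1 was called in both groups and VDR in neither. The F-test on the transcript gave adjusted p-values of 6.95e-04 in controls and 1.01e-04 in the amoxicillin group, and on the unsaturated probe 3.86e-04 and 3.30e-05, where 27.5% and 46.2% of 18152 probe names were called. In the amoxicillin group the probe rose by 1.60 (SE 0.42) from day 7 to weaning and by 1.54 (SE 0.42) from 4 to 28 d postweaning, with limma adjusted p of 0.0114 and 0.0142. On the transcript the steps were 0.80 and 0.77, with 0.0173 and 0.0209. The same upward steps were called for 5.40% and 4.27% of genes on the transcript scale and for 4.71% and 3.56% of probe names. The first of these transcript calls was lost without amoxicillin piglet 7 at weaning (adjusted p = 0.0552) or 20 (0.0537) or 21 (0.0528) on day 7. The probe call held without any 1 array. With slide as a fixed block the first transcript step was 0.50 and was no longer called. The second was lost on the probe without piglet 39 at 28 d (adjusted p = 0.0527) or 32 (0.0536) or 33 (0.0868) at 4 d postweaning, and on the transcript likewise (0.0702, 0.0664 and 0.109). With slide as a random block it was lost on both, with adjusted p-values of 0.0801 and 0.102. The transcript's step was also lost with normexp at a common 75th percentile (0.41, adjusted p = 0.312) and with the scanner's processed signal scaled to that percentile (0.50, adjusted p = 0.253). The control step from weaning to 4 d postweaning was 1.23 (SE 0.43) with an adjusted p of 0.119. Without control piglet 10 it was 1.59 with 0.0174. The amoxicillin step from weaning to 4 d postweaning was -0.49 on the transcript (adjusted p = 0.188). With slide as a fixed block it was -0.74 with 0.0162. On the probe it was -0.90 (adjusted p = 0.186), and -1.47 with 0.0159 without amoxicillin piglet 34.

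Within single slides the steps took other values. On slide 5 the amoxicillin step from day 7 to weaning was 0.97, with 1 array against 4. On slide 6 the step from 4 to 28 d postweaning was -0.16, with 1 against 4. From weaning to 4 d postweaning the amoxicillin group stood 1.47 lower at the later age on slide 5 (-1.47, 4 against 3). The controls changed by -0.20 on slide 2, with 3 against 1, and by -0.28 from 4 to 28 d postweaning on slide 3, with 4 against 3. With slide as a fixed block the F-test of the probe gave adjusted p-values of 0.991 in controls and 0.0278 in the amoxicillin group, and on the transcript 0.9995 and 0.0836. With slide as a random block the probe gave 0.0448 and 0.0021 and the transcript 0.0682 and 0.00497. The call between ages in controls was therefore lost with the fixed block on both scales.

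Amoxicillin against control, neither VDR nor CYP24A1 was called at any of the 5 ages by limma under a rule that asked for an adjusted p below 0.05 together with a log2 difference over 1.5. The same rule called 0.211% of genes on day 1, 0% on day 7, 3.41% at weaning, 1.54% at 4 d and 2.13% at 28 d postweaning. S100G is not counted because of its saturation, and the CYP24A1 transcript reaches a given fold less easily than its unsaturated probe because of the one at the ceiling. At an unadjusted p under 0.05, 1 of the 10 tests on these 2 transcripts passed, that of CYP24A1 at 4 d postweaning, and 2 of the 5 on the unsaturated CYP24A1 probe, at weaning and at 4 d postweaning. The intervals leave room for sizeable differences: on day 1 the VDR difference was -0.02 with a 95% interval of -1.12 to 1.09, and at 28 d postweaning it was 0.18 with -1.13 to 1.49.

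**Figure D5:**
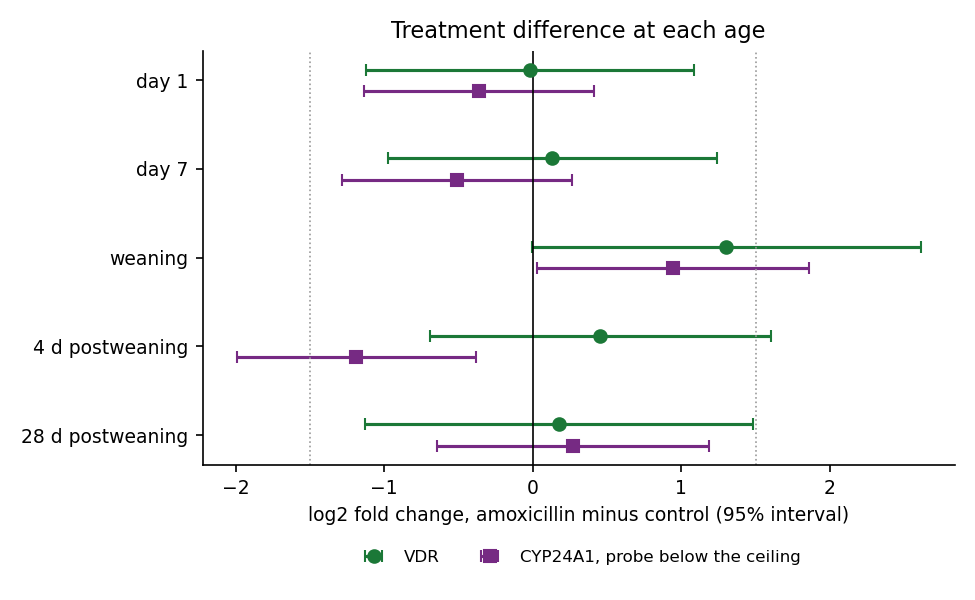
Log2 fold change of amoxicillin minus control at each age with its 95% interval from the limma fit, for VDR and for CYP24A1 probe A_72_P088422, with dotted lines at the fold threshold of 1.5. VDR intervals span 0 at all 5 ages. CYP24A1 lies above 0 at weaning (0.03 to 1.86) and below 0 at 4 d postweaning (-1.99 to -0.38), with neither past the adjusted threshold.

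Whether the treatment difference varied between ages was tested with the F-test over the differences between ages. It gave adjusted p-values of 0.832 for VDR and 0.162 for CYP24A1 (0.133 on the unsaturated probe), against 6.18% of genes called (5.26% of probe names). Without amoxicillin piglet 34 at 4 d postweaning the CYP24A1 value was 0.0225 (probe 0.00758), and without control piglet 10 at that age 0.039 (probe 0.0264). With slide as a random block it was 0.429 (probe 0.379).

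VDR and CYP24A1 were little correlated. Over all 43 arrays the Pearson correlation of VDR with the unsaturated CYP24A1 probe was -0.02, and the Spearman correlation was -0.02. Within controls they were 0.07 and 0.13 (n = 23), and within the amoxicillin group -0.07 and -0.11 (n = 20). Arrays share age, slide and treatment, so these are descriptions.

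Among 1857 tested genes that had a symbol and were measured on all 43 arrays, the 5 most like VDR over the 43 arrays were CLDN4, a tight junction protein (Pearson r = 0.78), EPHX1, an epoxide hydrolase (0.75), SAR1B, which serves chylomicron transport (0.73), POR, the electron donor of cytochrome P450 enzymes (0.72), and AGPAT2, an enzyme of triglyceride synthesis (0.72). The 3 least alike were APOE (-0.63), RPS12 (-0.52) and RDX (-0.50).

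The 5 most like the CYP24A1 probe were GAL3ST1, a sulfotransferase (0.73), GZMK, a granule protease of T cells (0.72), CDH24 (0.72), CCL5, a T cell chemokine (0.70), and NKG7, a granule protein of cytotoxic lymphocytes (0.69). The 3 least alike were GGTA1P (-0.82), CFL2 (-0.77) and ADSSL1 (-0.76). The summed level of the 6 T cell genes with a named probe of 8 listed ran from 8.85 to 9.84 on day 1 and from 12.37 to 13.62 at 28 d postweaning. It was 11.05 to 13.62 on slides 3 and 6 and 8.85 to 13.27 on the others. Its part in the CYP24A1 values was not tested. No such genes are given for S100G because of its saturation.

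Of 67 listed partners of the 3 genes in calcium and vitamin D handling, 31 had a named probe and 16 passed the filter on dim genes. The apical calcium channel TRPV6 had no named probe. Of the 16, 7 were called between ages in controls (30.5% of all genes tested) and 10 in the amoxicillin group (47.0%), and 1 had a treatment difference that varied with age (6.18%). Amoxicillin against control, 1 of 16 was called at weaning, where 3.41% of all genes were, and 0 at each other age. The median difference of the 16 at weaning was 0.30, against -0.07 over all genes tested.

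Among the genes of calcium entry and exit, ATP2B1, the pump that moves calcium out of the cell, differed between ages in both groups. It stood at 12.95 ± 0.30 (SD, n = 6) on day 1 and 11.96 ± 0.67 (SD, n = 3) at 28 d postweaning in controls, and at 13.04 ± 0.07 (SD, n = 4) and 11.46 ± 0.34 (SD, n = 4) in the amoxicillin group. The limma adjusted p of its F-test over ages was 0.00472 in controls and 0.00279 in the amoxicillin group, with 0.0798 in controls under the fixed slide block.

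Of 5 claudins that passed the filter, proteins that set what passes between cells, 2 were called between ages in controls and 3 in the amoxicillin group, against 30.5% and 47.0% of all genes. Both control calls, CLDN3 (adjusted p = 0.0111) and CLDN19 (0.0133), were lost with slide as a random block (0.126 and 0.204) and as a fixed block (0.807 and 0.901). The CLDN3 one was also lost with both scalings to a common 75th percentile (0.127 and 0.121), and the CLDN19 one without control piglet 34 at 28 d postweaning (0.109). CLDN19 was the 1 partner called for treatment. At weaning its levels were 7.44, 7.44 and 7.88 in controls and 9.13, 9.18, 9.92 and 10.15 in amoxicillin piglets, with no overlap, as for 12.6% of genes at this age. The control values of 7.44 were under 7.68, the threshold of the filter on dim genes. The CLDN19 difference was 2.01 (SE 0.42) with a limma adjusted p of 0.00284. It was 1.79 with 0.0539 under the random slide block, and 2.01 with 0.0846 when the arrays of weaning were fitted alone.

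At 28 d postweaning the CLDN19 difference was -0.88 (SE 0.42, adjusted p = 0.27), and its F-test for a varying difference gave a limma adjusted p of 0.0195. This was 0.0567 without control piglet 24 at weaning, 0.0555 without control piglet 34 at 28 d postweaning and 0.263 under the random slide block.

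CLDN3 rose by 1.25 (SE 0.36, limma adjusted p = 0.0212) from day 7 to weaning in the amoxicillin group, where CLDN19 rose by 2.03 (SE 0.39, adjusted p = 9.51e-04). The CLDN3 call was lost without amoxicillin piglet 29 at weaning (1.15, adjusted p = 0.0509), 20 on day 7 (0.0548) or 4 on day 7 (0.0613), and it had saturated spots on 3 arrays. CLDN2, a pore-forming claudin, fell by 1.55 (SE 0.41, adjusted p = 0.0122) from 4 to 28 d postweaning in that group, as did 8.41% of genes by the same call. That call was lost without piglet 39 at 28 d (adjusted p = 0.0536) or 32 at 4 d postweaning (0.0593). Under the random slide block the steps of CLDN3 and CLDN2 had adjusted p-values of 0.0982 and 0.0545.

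Of 3 tested genes of vitamin D activation and breakdown, 3 were called between ages in controls and 1 in the amoxicillin group, against 30.5% and 47.0% of all genes. CYP27A1, a hydroxylase that can act on vitamin D, was highest on day 7, at 9.36 ± 0.71 (SD, n = 6) in controls and 9.49 ± 1.32 (SD, n = 4) in the amoxicillin group. At 4 d postweaning it stood at 6.56 ± 0.98 (SD, n = 5) and 7.02 ± 0.72 (SD, n = 4), means under the dim gene threshold of 7.68. Its F-test gave limma adjusted p-values of 5.01e-04 and 0.00398, with 0.349 in controls under the fixed slide block. CYP3A29, a drug and steroid hydroxylase of the gut, had an F-test call in controls (adjusted p = 0.0266) that was lost with slide as a random (0.114) or fixed (0.229) block and without any of 4 single arrays (up to 0.0776). It rose by 3.36 (SE 0.88, adjusted p = 0.0378) from day 1 to day 7 in controls, a step called upward for 0.783% of genes. However, 10 of the 12 fits without 1 of these arrays lost the call, with adjusted p-values up to 0.136.

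Of 4 tested receptor partners and coregulators, 0 were called between ages in controls and 3 in the amoxicillin group, against 30.5% and 47.0% of all genes. RXRB, the retinoid X receptor that passed the filter, had a limma adjusted p of 0.0467 in the amoxicillin group and 0.959 in controls. SPP1, which encodes osteopontin and is a known target of the receptor, was the 1 tested gene among the other targets. It was at 14.18 ± 0.49 (SD, n = 6) in controls and 14.35 ± 0.97 (SD, n = 4) in amoxicillin piglets on day 1, and at 8.49 ± 4.21 (SD, n = 3) and 7.00 ± 1.61 (SD, n = 4) at 28 d postweaning, on the log2 scale. The 3 controls at 28 d had 5.22, 7.01 and 13.25, the last being piglet 13, 1 of the 6 with high ileal genes. Control piglets 7 (weaning, 10.78) and 10 (4 d postweaning, 13.63), also among these 6, had the highest SPP1 of their groups. So did amoxicillin piglets 8 (weaning, 11.55) and 40 (28 d, 9.37), but not 10 (4 d postweaning, 11.45). The F-test of SPP1 over ages gave adjusted p-values of 0.00247 and 1.99e-04. Both calls were lost under the fixed slide block (0.755 and 0.137), and the control one under the random block (0.116). Without the 6 arrays with high ileal genes the values were 9.42e-07 and 2.86e-07. From 4 to 28 d postweaning SPP1 fell in the amoxicillin group from levels of 10.08 to 12.04 to levels of 5.96 to 9.37. The fall came to -4.05 (SE 1.34, limma adjusted p = 0.04). Of the 8 fits without 1 of these arrays, 6 lost the call, with adjusted p-values up to 0.114. It was also lost with offset 50 (0.0554), with normexp at a common 75th percentile (0.0711) and with slide as a random (0.104) or fixed (0.564) block. Without the 6 arrays with high ileal genes the fall was -4.71 with a limma adjusted p of 0.0034. At 28 d the amoxicillin values of 5.96, 6.03 and 6.65 and the control values of 5.22 and 7.01 were under 7.68, the threshold for dim genes. The size of the fall is therefore uncertain.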

How the data were processed

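Jejunal RNA of 43 piglets (23 control, 20 amoxicillin) was measured on one-color Agilent arrays. The authors deposited Feature Extraction 10.7.3.1 scan files, whose median spot and background intensity is on a linear scale, and a table of normalized log2 intensity per probe, for which the submitters' processing notes name R 3.0.2 and limma. Background correction by normexp (offset 1) and quantile normalization between arrays, with flagged spots kept, gave log2 values within 5e-09 of that deposited log2 table. Outlier-flagged spots (45 to 375 per array) were then removed for the fits. Scores of the scanner (flags for saturation and for spots well above background) are deposited per spot in the scan files. No genome build is given in the sources used here.

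Probes of a transcript were averaged, and genes above 1.1 times the highest dark spot (log2 threshold 7.68) on every array of at least 1 of the 10 groups were kept (12771). All groups were fitted in 1 model (limma 3.58.1, R 4.3.3), and p-values were adjusted by Benjamini-Hochberg over all genes. Treatment calls needed an adjusted p below 0.05 together with a log2 difference over 1.5, age calls the adjusted p alone. The fit was tested on simulated data. Exact tests were two-sided permutations over arrays.

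The members, the partner list and the cell type markers were chosen with earlier results of these data known. Named genes are the members, the listed partners and, by Pearson correlation, the 5 most and 3 least like each member. Alternatives changed the background correction, scaling, filter, spot flags, probe summary, slide or piglet number as a block, the groups in the fit and single arrays. The per-probe fit of CYP24A1 under other choices and the fit without 6 arrays with high ileal genes were chosen after seeing the data. Values of 1 listed partner are not reported here, though the list's counts include it. No gene sequences were in the reference tables used here. Piglets carry separate numbers in the labels, except that control piglets 19 and 19B on day 1 share part of theirs. Their arrays correlated at 0.969, within the 0.965 to 0.983 of the other pairs of that group, and were kept as 2 samples.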

Additional observations from a re-analysis of the deposited data

Results flagged for a closer look

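Dixon's ratio was taken in 18 sets, each 1 probe in 1 of the 8 groups of 4 or more arrays, and 3 sets held an array far from its group. Of the 3, 2 are the same piglet on the 2 S100G probes. S100G sets with all arrays at the ceiling were left out, so these 2 sets were taken only because of that piglet. The rate of about 1 in 20 that chance alone marks therefore does not apply to them. Control piglet 10 at 4 d postweaning lay at 8.84 on the CYP24A1 probe A_72_P088422, with a ratio of 0.786 against a critical value of 0.71 for 5 arrays. It was the group's 1 array on slide 2. Amoxicillin piglet 8 at weaning lay at 14.95 and 14.27 on the 2 S100G probes A_72_P088751 and A_72_P701142, with a ratio of 1 on both, which follows from the other 3 arrays being at the scanner ceiling. The treatment contrast of CLDN19 differed between ages, with a limma adjusted p of 0.0195 for the test of the difference itself. This call was lost with slide as a random (0.263) or fixed (0.246) block and with the scanner's processed signal (0.0649). It was also lost without control piglet 24 at weaning or 34 at 28 d postweaning.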

How the results depend on the processing

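Neither VDR nor CYP24A1 was called for treatment under any setting that kept all arrays, whether the fold threshold was 1.5, 1 or absent, and S100G could not be compared because of its saturation. Leaving out 1 array in turn gave 0 to 1 such calls (VDR at weaning, 0.709 to 1.95, past the threshold without amoxicillin piglet 8). The unsaturated CYP24A1 probe at 4 d postweaning ranged from -1.75 to -0.766, past it without amoxicillin piglet 34 or control piglet 10, and was -1.51 with an adjusted p of 0.0352, also past it, without the 6 arrays with high ileal genes. The calls between ages (CYP24A1 in both groups, 2 in all) held under every scaling and filter, and leaving out 1 array gave 2 to 3. They fell to 0 with slide as a fixed block (adjusted p of 0.9995 in controls and 0.0836 in the amoxicillin group, and 0.991 in controls on the probe, whose amoxicillin call held) and to 1 with slide as a random block (0.0682 in controls). The ages follow the slides, so a fixed block leaves the within-slide steps alone. A fixed block cannot give a treatment difference. VDR in the amoxicillin group gave 0.0107 without the arrays with high ileal genes and 0.00854 to 0.245 without 1 array. The test of a treatment difference that varied with age gave 0 to 1 member without 1 array, with adjusted p-values for CYP24A1 of 0.0225 to 0.282 and for its probe of 0.00758 to 0.238.

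Of the values that changed sign, all but 1 were uncalled, and the cause was not tested. The exception was the CYP24A1 probe in the amoxicillin group from 4 to 28 d postweaning, called at 1.54 (adjusted p = 0.0142) and -0.16 (adjusted p = 0.963) with the fixed slide block. With the processed signal at a common percentile, CYP24A1 had -0.166 (probe -0.00205) from day 1 to day 7 in the amoxicillin group, and treatment differences of -0.306 (probe -0.235) at 28 d postweaning and 0.0222 on day 1. With normexp at a common percentile CYP24A1 had -0.0672 at 28 d postweaning and VDR 0.21 on day 1. With the fixed slide block CYP24A1 in controls had -0.0992 (probe -0.198) from weaning to 4 d and -0.137 (probe -0.279) from 4 to 28 d postweaning, and VDR had 1.44 for the latter in the amoxicillin group (0.028 with the random block). VDR in controls from 4 to 28 d postweaning, -0.01 as reported, was 0.112 with normexp at a common percentile, 0.00735 with offset 50 and 0.0131 with the random slide block. Without the arrays with high ileal genes it was 0.00169, with -0.551 from weaning to 4 d, and CYP24A1 from 4 to 28 d was -0.224 (probe -0.453).

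Leaving out 1 array in turn also moved these across 0. CYP24A1 ranged from -0.0574 to 0.276 (probe -0.108 to 0.527) from day 1 to day 7 in the amoxicillin group. In controls it ranged from -0.0117 to 0.132 (probe -0.0235 to 0.263) from day 7 to weaning and from -0.137 to 0.114 (probe -0.279 to 0.224) from 4 to 28 d postweaning, and its day 1 treatment difference from -0.328 to 0.00607. VDR ranged from -0.548 to 0.441 (weaning to 4 d) and from -0.518 to 0.482 (4 to 28 d) in controls, and its treatment difference from -0.376 to 0.42 on day 1, -0.103 to 0.474 on day 7 and -0.316 to 0.683 at 28 d postweaning. The called steps of CYP24A1 kept their sign: 0.677 to 0.904 (day 7 to weaning; adjusted p over 0.05 without amoxicillin piglet 7, 20 or 21) and 0.57 to 1.02 (4 to 28 d; without 39, 32 or 33).

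The total of treatment calls over all genes and ages was 931, with 765 to 1242 without 1 array. It was 81 with each age fitted alone, 1509 with the filter on spots well above background, 3148 with no filter, 1771 with a fold threshold of 1, 2004 with none, 573 with offset 50, 522 with the processed signal, 187 with the random slide block and 1810 without the arrays with high ileal genes. Piglet numbers are shared between treatments at an age. Deviations of the 10 same-numbered pairs correlated at -0.274 to 0.443, with 4 above 0.1. These correlations alone cannot tell whether the numbers reflect a pairing. The replicate block on them gave 974 calls, adjusted p-values for CYP24A1 between ages of 6.18e-04 and 1.02e-04, and a log2 step of 0.00538 (adjusted p = 0.9997) for VDR in controls from 4 to 28 d postweaning, and it changed no other call or sign of the members.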
